A study of Mus musculus with 4 samples.

Results

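A group of 10 genes of vascular endothelial growth factor (VEGF) signalling and of lung capillary endothelium were followed in newborn mouse lung: Vegfa, Kdr, Flt1, Angpt2, Tek, Apln, Aplnr, Esm1, Car4 and Plvap. These 10 genes were found by symbol among 48709 genes in the expression table, 1 row each, and all 10 had a mean of at least 10 normalized counts over the lungs and so belonged to the 18436 genes tested. Esm1 was selected on its low normalized counts in the mutant lungs relative to the wild type, so its values are a description and carry no test. The other 9 were taken as genes of the pathway or of capillaries, with earlier results of these data known. Left lung lobes of C57BL/6 mice were taken at postnatal day 1, untreated, from 2 RykSL/SL mice (both copies of Ryk carry the SL allele; called mutant below) and from 2 wild-type mice. RNA was sequenced after a stranded poly(A) library preparation. Ryk encodes a WNT receptor with a kinase-like domain. The sample descriptions call the mutant libraries KO, and the labels do not otherwise state what the SL allele does to the gene.

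VEGF-A is secreted in the alveolar region largely by epithelial cells and binds the receptor tyrosine kinases encoded by Kdr and Flt1 on endothelium. Kdr carries most of the growth and migration signal, whereas Flt1, which is also made in a soluble form, binds VEGF-A tightly and limits how much reaches Kdr. At the front of a sprouting vessel, tip cells express Esm1, Apln and Angpt2. Lung capillaries hold 2 cell types: aerocytes, which express Car4, Ednrb, Apln and high Kdr and take part in gas exchange, and general capillary cells, which express Aplnr, Plvap and Gpihbp1 and act as progenitors.

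The bases upstream of Esm1 and Apln are shown because these genes had the largest differences of the 10 between genotypes. Each window is the 250 bases before the RefSeq start (GRCm38.p6), at chr13:113209409-113209658 on the plus strand for Esm1 and at chrX:48034854-48035103 on the minus strand for Apln, printed 5′ to 3′ along the gene. Capitals mark matches to GGAA (the ETS core) or to TGTTT (a forkhead core), on either strand; TTCC and AAACA are the same letters read on the other strand.
Esm1: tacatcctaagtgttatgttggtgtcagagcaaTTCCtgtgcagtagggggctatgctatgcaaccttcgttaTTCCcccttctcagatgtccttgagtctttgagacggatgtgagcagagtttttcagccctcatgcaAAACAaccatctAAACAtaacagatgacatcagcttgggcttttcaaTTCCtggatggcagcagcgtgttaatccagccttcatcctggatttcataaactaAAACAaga
Apln: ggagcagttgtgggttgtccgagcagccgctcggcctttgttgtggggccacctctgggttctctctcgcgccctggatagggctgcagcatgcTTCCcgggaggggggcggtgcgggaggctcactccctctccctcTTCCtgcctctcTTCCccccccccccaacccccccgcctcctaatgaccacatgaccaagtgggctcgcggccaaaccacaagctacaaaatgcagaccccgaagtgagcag
Both windows hold 3 matches to GGAA, letters that occur in 93.4% of 32817 windows of this length. The Esm1 window also holds 3 matches to TGTTT, which occurs in 46.4% of windows, and the Apln window holds 0. Neither window contains ACGTG, a form of the hypoxia response core, which occurs in 16.6% of windows. Other forms of that core, such as GCGTG, were not searched for. Windows were found for 7 of the 10 genes.

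Values below are normalized read counts, scaled between libraries and rounded by the authors, and their library totals lay between 19516482 and 19987634 in mutant lungs and between 18658239 and 18743098 in wild-type lungs. Ryk itself stood at 2757 and 2203 in mutant lungs and at 2528 and 2525 in wild-type lungs. The SD of the log2 difference over genes was 0.6 between the mutant lungs and 0.314 between the wild-type lungs. Mutant replicate 1 had 24836 normalized counts of Xist, against 9 in mutant replicate 2 and 7 and 23 in wild-type lungs, so 1 mutant lung differed from the other 3 in this female-specific RNA. The Y-linked Ddx3y was at 56 and 3769 in mutant lungs and at 2328 and 2197 in wild-type lungs. By both RNAs mutant replicate 1 read as female and the other 3 lungs as male, so apparent sex differed within the mutant pair only. As a check of the tissue, the 10 epithelial markers, surfactant genes included, were above 0 in every lung and summed to 226430 and 174849 in mutant lungs and to 263086 and 242698 in wild-type lungs. Most of each sum was Sftpc, at 179120 and 135559 in mutant lungs and at 220945 and 200581 in wild-type lungs. The median log2 fold change of the 10 markers, mutant minus wild-type, was 0.14.

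None of the 9 genes other than Esm1 passed the test between genotypes (limma over all 18436 genes, Benjamini-Hochberg adjusted p under 0.05), where 2.39% of all genes passed, 0.917% as lower and 1.47% as higher. At an unadjusted p under 0.05 the count was 5 of 9, against 20.1% of all genes. Differences are given as mutant minus wild-type log2(value + 1), a scale that shrinks those of low genes, and SE is the moderated standard error. Both mutant lungs lay below both wild-type lungs for Esm1, Apln, Kdr, Car4 and Aplnr, and above them for Flt1; among all genes tested these patterns held for 26.9% and 25.7%. For Vegfa, Angpt2, Tek and Plvap the genotypes overlapped. The median log2 fold change of the 9 genes was -0.47, against -0.02 over all genes tested. As the 9 were chosen with earlier results of these data known, neither this median nor the count of 5 is a test of the group. In whole lung, fewer cells of a type and less RNA per cell cannot be told apart.

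**Figure D1:**
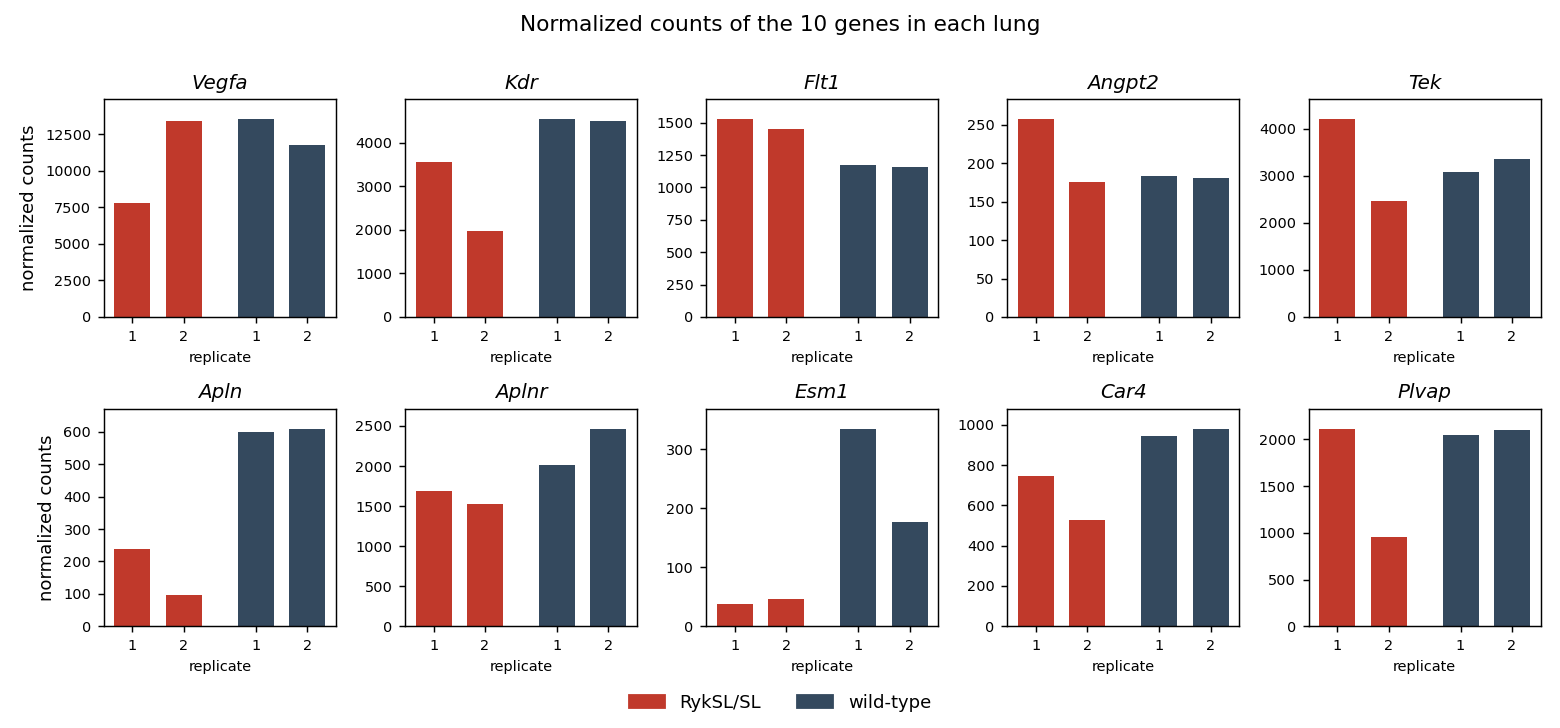
Normalized counts (vertical axis, starting at 0, with its own scale for each gene) of the 10 genes in each lung, 1 bar per library, with RykSL/SL lungs on the left of each panel and wild-type lungs on the right. Apln and Esm1 are low in both mutant lungs, whereas the mutant bars differ from each other for Kdr, Tek, Plvap and Vegfa.

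Vegfa, the ligand (ENSMUSG00000023951, chromosome 17, positions 46016993 to 46032377, GRCm38), was at 7808 and 13413 normalized counts in mutant lungs and at 13513 and 11746 in wild-type lungs. Mutant replicate 1 alone was low, at 61.8% of the wild-type mean, and mutant replicate 2 lay between the wild-type lungs. The difference was -0.30 on the log2 scale (SE 0.278, limma adjusted p = 0.593). Without mutant replicate 1 it was 0.09, so this direction rested on that lung. The summed level of 13 alveolar type 1 cell markers, from cells that make VEGF-A, was 102430 and 89603 in mutant lungs and 122241 and 118269 in wild-type lungs, none of the 13 at 0 in any lung; its part in the Vegfa values was not tested.

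None of the other VEGF family ligands passed, and 2 of the 5 ligands had an unadjusted p under 0.05 in limma. Pgf, placental growth factor, which binds Flt1, was at 152 and 151 in mutant lungs and at 107 and 86 in wild-type lungs (log2 fold change 0.65, limma adjusted p = 0.173). Vegfc, which acts mainly on lymphatic vessels, was at 735 and 532 in mutant lungs and at 410 and 415 in wild-type lungs (0.60, limma adjusted p = 0.174). For both genes the genotypes did not overlap. Vegfb was at 230 and 215 in mutant lungs and at 274 and 305 in wild-type lungs, and Vegfd at 1197 and 681 in mutant lungs and at 1032 and 952 in wild-type lungs. The 5 ligands had a median log2 fold change of -0.13.

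Kdr, the main signalling receptor (ENSMUSG00000062960, chromosome 5, positions 75932827 to 75978458), was at 3560 and 1978 normalized counts in mutant lungs and at 4536 and 4492 in wild-type lungs. Both mutant lungs were below the wild type, replicate 2 at 43.8% and replicate 1 at 78.9% of the wild-type mean. The difference was -0.77 on the log2 scale (SE 0.277, limma adjusted p = 0.209). It was -1.19 without mutant replicate 1 and -0.34 without mutant replicate 2.

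Flt1, the decoy-like receptor on the same chromosome (ENSMUSG00000029648, positions 147561604 to 147726011), was the only one of the 10 with both mutant lungs above both wild-type lungs. It was at 1526 and 1450 in mutant lungs and at 1170 and 1159 in wild-type lungs, a difference of 0.35 on the log2 scale (SE 0.131, limma adjusted p = 0.218). Replicates were close in both genotypes. Gene totals do not separate the soluble from the membrane form. Within each lung, the ratio of Flt1 to Kdr counts was 0.429 and 0.733 in mutant lungs and 0.258 in each wild-type lung; this ratio, like that of Apln to Aplnr below, was chosen after the values were seen and has no test.

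The co-receptors showed no called difference. Nrp2 was at 2309 and 1483 in mutant lungs and at 2523 and 2563 in wild-type lungs, and Nrp1, which presents VEGF-A to Kdr, at 3616 and 1660 in mutant lungs and at 2578 and 2665 in wild-type lungs. Flt4, the receptor for VEGF-C, was at 807 and 812 in mutant lungs and at 720 and 900 in wild-type lungs. Of 11 tested adaptors and phosphatases that act on VEGF receptors, 0 passed in limma and 2 had an unadjusted p under 0.05.

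Esm1, an endothelial proteoglycan (endocan) of tip cells that is induced by VEGF (ENSMUSG00000042379, chromosome 13, positions 113209659 to 113218098), was at 38 and 47 normalized counts in mutant lungs and at 335 and 177 in wild-type lungs. The mutant lungs were close to each other, at 14.8% and 18.4% of the wild-type mean, and the wild-type lungs differed 1.89-fold. On the log2 scale this was -2.50 (SE 0.341), and between -2.96 and -2.04 over 13 other settings. Esm1 was selected on these same values, so neither the SE nor this range is support for its fall. The mutant values are small counts, with a correspondingly wide counting error.

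Apln, the apelin ligand that tip cells and aerocytes secrete (ENSMUSG00000037010, chromosome X, positions 48025146 to 48034853), was at 239 and 96 in mutant lungs and at 600 and 610 in wild-type lungs. Both mutant lungs were far below the wild type, at 39.5% and 15.9% of its mean, and they differed 2.49-fold from each other. On the log2 scale this was -1.99 (SE 0.405), a 3.97-fold lower level in the mutant, and it did not pass (limma, adjusted p = 0.0727). Leaving out mutant replicate 1, which had the high Xist, it was -2.64, and without mutant replicate 2 it was -1.34. Apln is X-linked, and the mutant lung with high Xist had the higher of the 2 mutant values. That order was not particular to Apln, as it held for 8 of the 10 genes, among them the autosomal Plvap (2.21-fold) and Kdr (1.8-fold). A part of the X chromosome in the Apln values was not tested.

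Aplnr, the G protein-coupled receptor for apelin on general capillary cells (ENSMUSG00000044338, chromosome 2, positions 85136225 to 85139923), was at 1683 and 1531 in mutant lungs and at 2007 and 2468 in wild-type lungs. The genotypes did not overlap, but the log2 fold change of -0.47 (SE 0.16) did not pass (limma, adjusted p = 0.189). The ratio of Apln to Aplnr counts within a lung was 0.142 and 0.0627 in mutant lungs and 0.299 and 0.247 in wild-type lungs.

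Angpt2, the angiopoietin that tip cells release and that mostly antagonises TIE2 (ENSMUSG00000031465, chromosome 8, positions 18690263 to 18741562), was at 257 and 175 in mutant lungs and at 183 and 181 in wild-type lungs. Only mutant replicate 1 stood apart, at 141% of the wild-type mean, so this tip cell gene did not share the low values of Esm1 and Apln. The difference was 0.22 on the log2 scale (SE 0.231, limma adjusted p = 0.642), and -0.06 without mutant replicate 1. Tek, which encodes TIE2 (ENSMUSG00000006386, chromosome 4, positions 94739289 to 94874976), was at 4203 and 2463 in mutant lungs and at 3089 and 3361 in wild-type lungs. The mutant lungs lay on either side of the wild type and the difference was 0.00 on the log2 scale (SE 0.26, limma adjusted p = 0.997). It was -0.39 without mutant replicate 1 and 0.38 without mutant replicate 2. Angpt1, the activating ligand made by mesenchymal cells, was at 1422 and 1573 in mutant lungs and at 1215 and 1206 in wild-type lungs (0.30, limma adjusted p = 0.278), and Tie1 was at 4155 and 2901 in mutant lungs and at 3151 and 4062 in wild-type lungs. None of the 6 tested angiopoietin and TIE genes passed in limma, and 0 had an unadjusted p under 0.05.

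Car4, a membrane-anchored carbonic anhydrase of aerocytes (ENSMUSG00000000805, chromosome 11, positions 84957786 to 84966044), was at 747 and 529 in mutant lungs and at 943 and 982 in wild-type lungs. Both mutant lungs were below the wild type, at 77.6% and 55.0% of its mean (log2 fold change -0.61, SE 0.196, limma adjusted p = 0.171). It was -0.86 without mutant replicate 1 and -0.36 without mutant replicate 2. Plvap, which forms the diaphragms of fenestrae and caveolae (ENSMUSG00000034845, chromosome 8, positions 71497765 to 71511752), was at 2116 and 957 in mutant lungs and at 2045 and 2105 in wild-type lungs. Mutant replicate 1 was at the wild-type level and mutant replicate 2 at 46.1% of it. The difference was -0.54 on the log2 scale (SE 0.353, limma adjusted p = 0.439), at -1.12 without mutant replicate 1 and 0.03 without mutant replicate 2.

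Levels of different genes were compared per kilobase of exon. In wild-type lungs Vegfa was highest (3154 and 2741 normalized counts per kilobase), followed by Plvap (1029 and 1059). Next came Tek (656 and 713) and Aplnr (543 and 667), whose values overlapped. Kdr (502 and 497) and Car4 (479.7 and 499.5) also overlapped. Apln (190.5 and 193.7), Esm1 (159.8 and 84.4), Flt1 (86.6 and 85.8) and Angpt2 (49.6 and 49.1) were the lowest, with Esm1 overlapping Flt1. In mutant lungs the 4 lowest were Flt1 (113 and 107 per kilobase), Angpt2 (69.6 and 47.4), Apln (75.9 and 30.5) and Esm1 (18.1 and 22.4). Apln thus overlapped Angpt2 in the mutant, although in wild-type lungs all its values were above those of Esm1, Flt1 and Angpt2.

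Of 25 pan-endothelial genes, 21 were higher in mutant replicate 1 than in mutant replicate 2, as were 8 of the 10 genes, against 50.8% of all genes tested. The same order held for 12 of 13 proliferation genes, 8 of 10 epithelial markers and 6 of 7 platelet and megakaryocyte markers. It was not general, as it held for only 3 of 9 lymphatic endothelial markers and 3 of 9 hypoxia-inducible factor genes. Cardiac muscle markers had it in 4 of 9 and erythroid genes in 5 of 8. The pan-endothelial genes summed to 86587 and 61494 normalized counts in mutant lungs and to 72966 and 75440 in wild-type lungs, and none of the 25 was at 0 in any lung. None of them passed between genotypes in limma (7 had an unadjusted p under 0.05), and their median log2 fold change was -0.08. The smallest p among them belonged to S1pr1, a sphingosine phosphate receptor that stabilises vessels, at 5155 and 3884 in mutant lungs and at 2641 and 2604 in wild-type lungs (limma, adjusted p = 0.0934). Nos3 was at 422 and 545 in mutant lungs and at 263 and 356 in wild-type lungs. In the same list, the transcription factor gene Sox7 and the matrix glycoprotein gene Mmrn2 lay below the wild type in both mutant lungs without passing.

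To set each gene against endothelial genes of its own lung, the mean log2 level of the 25 pan-endothelial genes was subtracted from its log2(value + 1). On this scale Esm1 was at -5.78 and -4.98 in mutant lungs and at -2.54 and -3.50 in wild-type lungs. Apln was at -3.16 and -3.96 in mutant lungs and at -1.70 and -1.72 in wild-type lungs. Both were lower in each mutant lung on this scale as well. The pan-endothelial mean differed by only -0.14 between genotypes, so centring could not undo differences as large as theirs. Whether endothelial cell numbers had a part in them was not tested. Kdr was at 0.73 and 0.39 in mutant lungs and at 1.22 and 1.16 in wild-type lungs, and Car4, at -1.52 and -1.51 in mutant lungs and at -1.05 and -1.04 in wild-type lungs, had nearly the same level in both mutant lungs. Flt1 was at -0.49 and -0.06 in mutant lungs and at -0.74 and -0.80 in wild-type lungs. Angpt2, at -3.06 and -3.10 in mutant lungs and at -3.41 and -3.47 in wild-type lungs, was now higher in both. Plvap was at -0.02 and -0.66 in mutant lungs and at 0.07 and 0.06 in wild-type lungs. These are descriptions, since with this centring limma called 0 of the 9 genes as higher or lower.

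**Figure D2:**
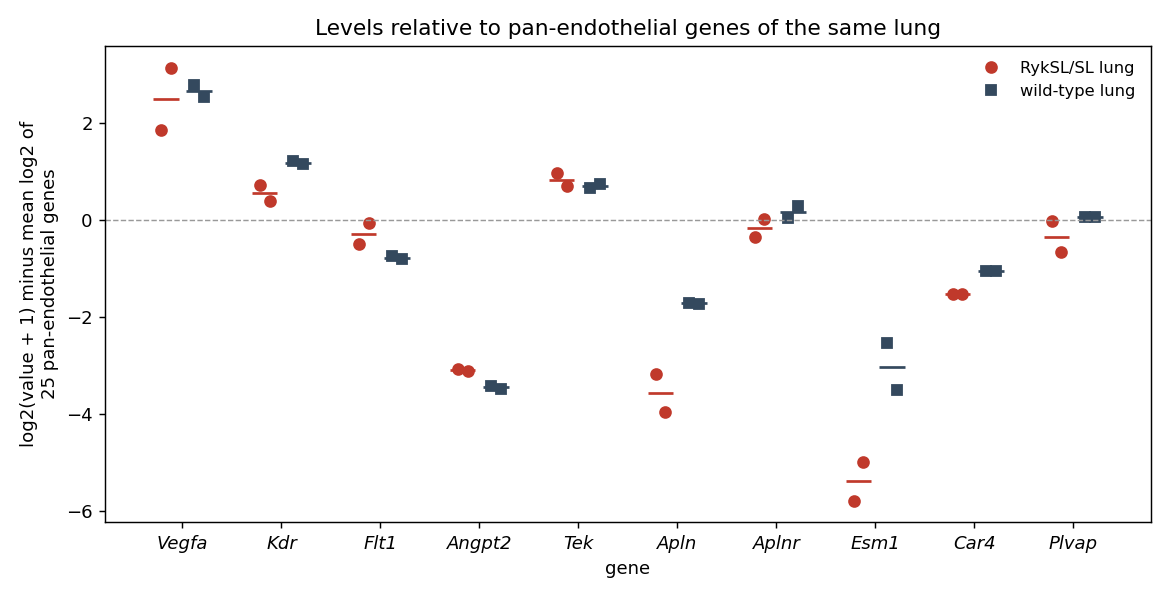
Level of each of the 10 genes relative to the mean of 25 pan-endothelial genes in the same lung (vertical axis, log2 units), with red circles for RykSL/SL lungs, dark squares for wild-type lungs and short lines for the mean of each pair. Apln and Esm1 show the widest gaps, and the mutant lungs sit close together for Car4 and Angpt2.

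Other genes that VEGF induces or that mark tip cells went both ways. Of 10 tested VEGF-induced genes other than Esm1, 1 rose, 2 fell and 7 did not pass, with a median log2 fold change of 0.08. Dll4, the NOTCH ligand by which tip cells restrain their neighbours, fell to 481 and 383 in mutant lungs, against 876 and 839 in wild-type lungs (log2 fold change -1.0, limma adjusted p = 0.0452). Cxcr4, a chemokine receptor of tip cells and of many leukocytes, fell to 345 and 610 in mutant lungs, against 1428 and 1365 in wild-type lungs (-1.60, limma adjusted p = 0.0454). Adamts1, a secreted protease that can bind VEGF-A, rose to 7392 and 12276 in mutant lungs, against 2665 and 2725 in wild-type lungs (1.82, limma adjusted p = 0.0292). Rcan1, a calcineurin inhibitor induced by VEGF, was at 811 and 756 in mutant lungs and at 1127 and 1062 in wild-type lungs (-0.48, limma adjusted p = 0.142).

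Of 18 tested tip cell genes other than Esm1, 0 rose, 2 fell (Dll4 and Cxcr4) and 16 did not pass, with a median of 0.04. Adm, adrenomedullin, a vasodilator peptide that also responds to hypoxia, was at 223 and 107 in mutant lungs and at 46 and 13 in wild-type lungs (2.60, SE 0.629, limma adjusted p = 0.103). It was thus high where Esm1 and Apln were low. Unc5b, a netrin receptor of tip cells, was at 564 and 309 in mutant lungs and at 812 and 782 in wild-type lungs (-0.93, limma adjusted p = 0.159).

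Genes of both capillary cell types included some that rose. Of 15 tested aerocyte genes, 2 rose and 0 fell, with a median of -0.26. In limma 10 had an unadjusted p under 0.05, in both directions, against 20.1% of all genes. Fibin rose to 3075 and 2908 in mutant lungs, against 1687 and 1516 in wild-type lungs (0.90, limma adjusted p = 0.036). The transcription factor gene Foxp1, which epithelium also expresses, rose to 4041 and 3639 in mutant lungs, against 1955 and 2210 in wild-type lungs (0.88, limma adjusted p = 0.0446), and no longer passed after quantile normalization (limma, adjusted p = 0.0608) or scaling to library totals (limma, adjusted p = 0.063). Ednrb, the endothelin receptor of aerocytes, was at 2503 and 2931 in mutant lungs and at 1929 and 1943 in wild-type lungs (0.48, limma adjusted p = 0.154), above the wild type where Car4, Apln and Kdr were below it. Cyp4b1 also lay above the wild type in both mutant lungs (0.64, limma adjusted p = 0.17). Igfbp7 and Kitl lay below it in both (-0.49 and -0.63, limma adjusted p = 0.136 and 0.18).

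Of 16 general capillary genes, 3 rose and 0 fell, with a median of 0.11. Adgrl4, an adhesion receptor of endothelium, rose to 2313 and 2110 in mutant lungs, against 1113 and 1162 in wild-type lungs (0.96, limma adjusted p = 0.031). Fabp4 and Lpl, which handle fatty acids and are also expressed outside endothelium, had log2 fold changes of 1.72 and 0.99 (limma, adjusted p = 0.0393 and 0.0475), and Lpl no longer passed after quantile normalization (limma, adjusted p = 0.0653) or scaling to library totals (limma, adjusted p = 0.0578). Cd36, a fatty acid receptor of capillaries, was at 18483 and 18346 in mutant lungs and at 14436 and 13931 in wild-type lungs (limma, adjusted p = 0.275). Cxcl12, the ligand of Cxcr4, was at 3333 and 924 in mutant lungs and at 4118 and 4070 in wild-type lungs, so that both mutant lungs lay below both wild-type lungs, replicate 2 farther.

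**Figure D3:**
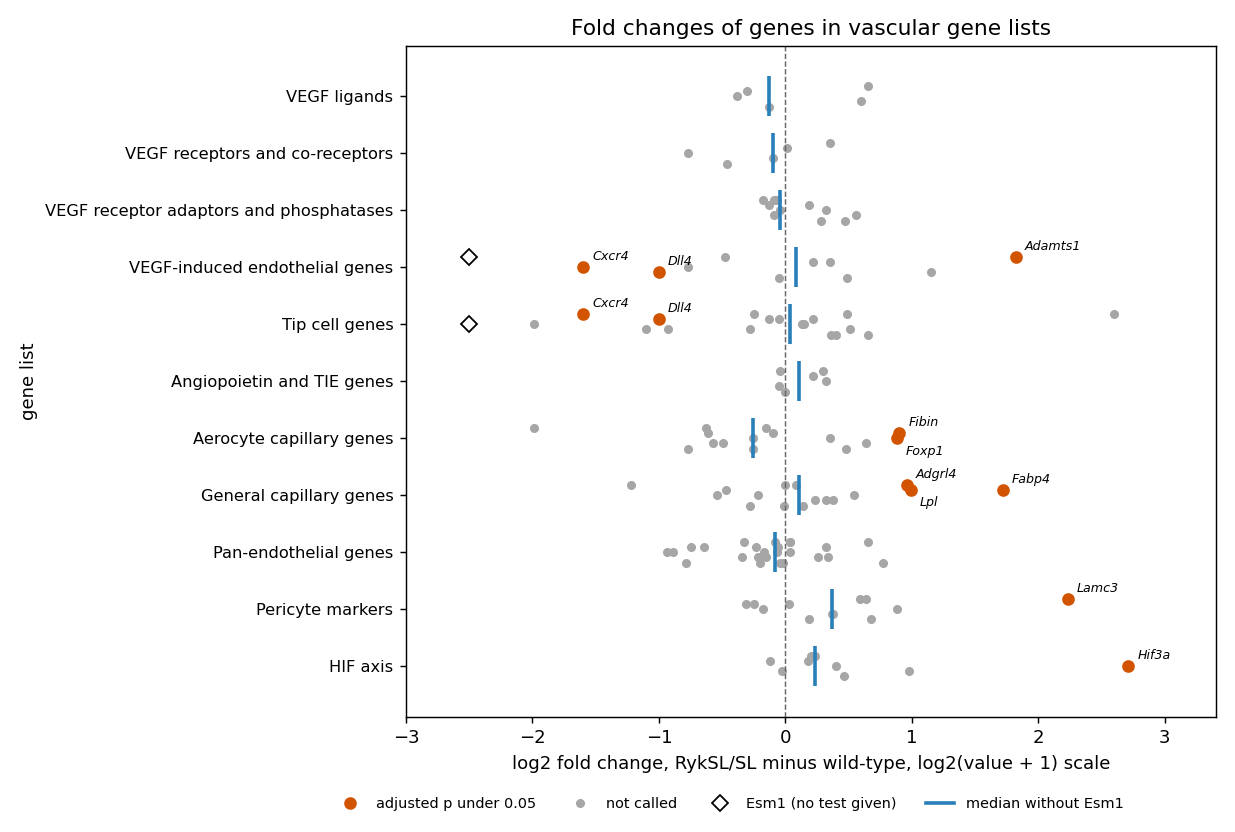
Log2 fold change (horizontal axis, RykSL/SL minus wild-type) of each tested gene in 11 vascular gene lists, 1 point per gene, with genes past the test in orange, Esm1 as an open diamond and the median of each list without Esm1 as a blue line; vertical offsets within a list only separate points. Called genes lie on both sides of 0.

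Markers of neighbouring vessel types and cells were read beside these genes. Of 12 arterial markers 1 fell, the gap junction gene Gja5, at 624 and 522 in mutant lungs and at 1853 and 1833 in wild-type lungs (-1.69, limma adjusted p = 0.0109). Of 8 venous markers Vcam1 fell (-1.55, limma adjusted p = 0.0394), and of 9 lymphatic markers Ccl21a fell (-1.03, limma adjusted p = 0.031). Of 12 pericyte markers 1 rose, Lamc3, a laminin chain gene, at 558 and 621 in mutant lungs and at 105 and 148 in wild-type lungs (2.23, limma adjusted p = 0.0122); pericyte markers summed to 17229 and 12704 in mutant lungs and to 12804 and 13385 in wild-type lungs. Among 9 genes of the hypoxia-inducible factor (HIF) axis, which drives Vegfa transcription under low oxygen, Hif3a rose to 4454 and 5582 in mutant lungs, against 682 and 851 in wild-type lungs (2.71, limma adjusted p = 0.00597), and 8 did not pass.

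Cardiac muscle markers, which dissection can carry along with their own capillaries, had a summed level of 4330 and 3843 in mutant lungs, against 7640 and 7663 in wild-type lungs. Of 9 tested, 2 fell (Myl7 and Myl4) and 7 did not pass. Their part in the endothelial values was not tested. Of 13 proliferation genes 1 fell, Mcm5 (-1.03, limma adjusted p = 0.0475), which no longer passed after quantile normalization (limma, adjusted p = 0.0574), and of 8 erythroid and 7 platelet genes 0 passed. Leaving out 1 lung could not reverse the 16 list genes called besides Esm1, whose genotypes did not overlap. These 16 also kept their direction in every other alternative. Of them, 13 still passed after quantile normalization, 14 with library totals, 2 after centring on pan-endothelial genes, 1 without the trend and 0 when low genes were kept. None of them passed without mutant replicate 2 or without either wild-type lung, where limma called 0 genes in all.

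Over the annotation terms in the table, 5 of the 10 genes (Vegfa, Flt1, Angpt2, Tek and Esm1) carried the Gene Ontology term angiogenesis, which 389 genes in the table carry. Kdr lacked even the term cellular process, which the other 9 carried, so its annotation here appears incomplete. Counts by these terms therefore leave Kdr out. Of the 346 tested genes with this term other than Esm1, 10 were called higher and 11 lower, with a median log2 fold change of -0.03. Of 57 tested genes annotated to sprouting angiogenesis, again without Esm1, 0 were called higher and 3 lower, and their median was -0.14. Of all genes tested, 1.47% were called higher and 0.917% lower.

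The 5 protein-coding genes closest to Esm1 over the 4 lungs, by Euclidean distance of log2(value + 1) from the wild-type mean among 12376 genes, were Phex (0.505 log2 units), Tdrd5 (0.55), Slitrk6 (0.705), Slc1a2 (0.726) and Prss35 (0.798). Phex, a membrane peptidase gene, was at 149 and 147 in mutant lungs and at 1063 and 828 in wild-type lungs. Slc1a2, a glutamate transporter gene, was at 27 and 28 in mutant lungs and at 135 and 112 in wild-type lungs. None of the other 9 genes of the VEGF and capillary group was among these 5.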

How the data were processed

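The deposited table holds whole-number normalized counts, treated here as a score: per the file's name and values, the authors scaled counts between libraries and rounded them. Per the submitters' processing notes, FastQC, STAR 2.4.0a, featureCounts 1.5.1 (Subread) and DESeq2 1.14.1 were used, with mm10 and GRCm38; the sources used here give neither the scaling nor the strand setting. In mutant replicate 2 no gene has a value of 3 or 10, and in mutant replicate 1 more genes have 3 (1707) than 2 (1582), as scaling and rounding produce; the raw counts cannot be read back from such values, and a count model was not used. Values under about 10 rest on a few reads.

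Groups came from the sample titles. The test was limma 3.58.1 (R 4.3.3) on log2(value + 1), with the trend option of eBayes, two-sided, for genes averaging at least 10 over the 4 libraries; this scale understates changes of low genes. With 2 mice per genotype, p-values rest only partly on a gene's spread between these mice, whose sex and litter are not labelled. The rest comes from the spread of other genes at similar levels (4.07 prior degrees of freedom). Exon lengths and shared sequences came from GENCODE M21 (GRCm38): at most 0.182% of the 50-base sequences of any of the 10 genes occur in other genes' transcripts, and no exon of another gene overlaps theirs. Older symbols were matched through RefSeq synonyms. Genes, lists and the rule for naming genes (all 10 genes, each called list gene, and up to 4 others per list by smallest p) were chosen with earlier results of these data known. Python 3.11.15, pandas 2.3.3, numpy 2.4.6 and matplotlib 3.10.9 were used for other steps. An item that a list selects is not reported here.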

Additional observations from a re-analysis of the deposited data

How the results depend on the processing

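The number of genes called over the whole table was 440 and depended on the processing: it was 60 after centring on pan-endothelial genes, 72 without the trend, 0 when low genes were kept (4876 by unadjusted p under 0.05), 766 with a replicate block, and between 0 and 2385 with 1 lung left out (the lone lung is then taken to vary like the other genotype's pair), the highest without mutant replicate 1. Of the 9 genes, 0 passed as higher in any setting; 0 passed as lower except 1 (Apln, limma adjusted p = 0.00733) with the replicate block and between 0 and 4 with 1 lung left out, the 4 being Kdr, Apln, Car4 and Plvap without mutant replicate 1. Replicate numbers pair nothing in the labels, and the deviations of same-numbered lungs correlated at -0.0579 over genes, so the block is no paired analysis.

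Direction reversed for the following genes. With 1 lung left out, log2 fold changes ranged from -0.69 to 0.09 for Vegfa, -0.06 to 0.50 for Angpt2, -0.39 to 0.38 for Tek, -1.12 to 0.03 for Plvap, -0.54 to 0.27 for Vegfd, -0.66 to 0.46 for Nrp1, -0.15 to 0.17 for Flt4, -0.39 to 0.30 for Svep1 and -0.30 to 0.22 for Tie1. Centred on pan-endothelial genes, which moved the median of all genes to 0.12, Tek was at 0.14, Vegfd at 0.00, Nrp1 at 0.04, Svep1 at 0.09 and Tie1 at 0.10. Flt4 was at -0.05 after quantile normalization and at -0.07 with library totals. The cause was not tested. Kdr, Flt1, Apln, Aplnr, Car4 and Esm1 kept their direction in all 13 alternatives. For these genes leaving out 1 lung could not reverse it, because their genotypes did not overlap. The filters, the trend option and the replicate block leave a fold change as it was. The mutant lungs differed from each other in most pan-endothelial genes, in Xist and in Ddx3y. Values that rest on 1 of these lungs are thus limited to that mouse.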
